A study of Mus musculus with 3 samples.

Results

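Genes whose mRNA carried exactly 1 predicted m6A site were described in RAW 264.7 cells, an established mouse macrophage cell line. They were chosen by a measured value, the number of listed sites per gene: a protein-coding gene of GENCODE M21 on GRCm38 was taken if exactly 1 site of the deposited list lay in its exons on the same strand, over all annotated transcripts. Sites in exons of more than 1 gene were left out. The rule gave 1275 genes of the 4845 protein-coding genes with a site, or 26.3% (95% Wilson interval 25.1 to 27.6%), and these genes held 6.79% of the 18784 sites in exons of 1 protein-coding gene. A further 956 genes had 2 sites, 2268 had 3 to 9 and 346 had 10 or more, with a median of 3 sites per gene. The share with a single site was 36.6% at a minimum score of 0.7 and 77.8% at 0.9, so it holds for the list as deposited. The number of sites was the rule itself and is given as a description only.

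The sites came from miCLIP2 on poly(A)+ RNA of untreated cells, in 1 group of 3 biological replicates with no other condition and no control group. In miCLIP2 an antibody against m6A is crosslinked to RNA by UV light, and reverse transcription mostly stops at the crosslink. The authors called peaks from these stops. Reads with a C-to-T change were set aside before peak calling, and the changes served as an input of the model named next. The authors kept peaks found in at least 2 replicates, scored those at A with the machine learning model m6Aboost and deposited the sites scoring above 0.5 as 1 list of 19301 sites for the line. The score describes the call of the model and is not a methylation level, and without counts or replicate values in the list, neither the depth of a site, the expression of its gene nor the spread between replicates is known here. One field of the labels calls the line human, while the organism label is mouse, and all 19301 sites lay at A in the mouse genome. Of macrophage markers, Csf1r held 11 sites, Cd14 held 13 and Spi1 held 6, while Adgre1, Cd68, Itgam, Mrc1 and Marco had none; Cd3e, Epcam, Col1a1 and Pecam1, markers of other cell types, had none either. A gene without a listed site may be unmethylated, lowly expressed or missed, and these cannot be told apart.

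N6-methyladenosine is placed on mRNA in the nucleus by a complex around the methyltransferase METTL3, mostly at the motif DRACH, in which D is A, G or T, R is A or G, and H is A, C or T. It is known for its abundance near stop codons and in long exons, and for its scarcity close to exon junctions, where exon junction complexes sit on the spliced RNA. Reader proteins of the YTH family bind it and can shorten the life of an mRNA.

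The windows of 21 bases below show single sites of the main kinds, each centred on the listed A with the 5-base motif in capitals, read 5′ to 3′ on the strand of the gene from GRCm38. The first 4 are from the 10 highest scores, and Elf4, Pan2 and Vps28 are inside internal coding exons. Rpl39 and Rps9 are in ribosomal protein mRNAs, with Rps9 also in an internal coding exon, and Cdkn2d has the highest score outside DRACH.
Tmem209 (chr6:30482894-30482914, minus strand): aaacatttGGACTttgctttt
Azi2 (chr9:118062148-118062168, plus strand): gaagacacGGACTcaggggtt
Fcna (chr2:25625006-25625026, minus strand): aatagcatGAACTgtgcagct
Rab5if (chr2:156873239-156873259, plus strand): gggttgtgAAACTtttcaaag
Elf4 (chrX:48416937-48416957, minus strand): atgcctaaGGACTtggtggtg
Pan2 (chr10:128304206-128304226, plus strand): atcgtcatGAACTttgagggt
Vps28 (chr15:76624094-76624114, minus strand): tacatcaaGGACTgtgtcacc
Rpl39 (chrX:37082603-37082623, minus strand): aaacctggAGACTcttcgtgt
Rps9 (chr7:3704646-3704666, plus strand): gagagtatGGACTccggaaca
Cdkn2d (chr9:21289057-21289077, minus strand): caccacagGGACGcttccggt

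Single sites sat around the stop codon. Each was placed on the transcript of its gene with the longest coding sequence (CDS), which held the site in 1227 of 1275 genes; 1 of these transcripts had no annotated stop codon. Of the remaining 1226 sites, 580 lay within 200 nt of the first base of the stop codon, or 47.3% (44.5 to 50.1%). DRACH A of the same transcripts, taken as a mean over genes, were there in 19.8%, so the sites were 2.39 times as frequent. The distance to it, negative before the stop codon, had a median of -57 nt (-86 to -35) and quartiles of -563.75 and 87.75 nt. The 2 fullest bins of 50 nt were the first and the second after the start of the stop codon, with 127 sites where DRACH A would give 35.6 and 115 where they would give 30.9. Between 800 and 1500 nt on the 3′ side, bins held between 0 and 2 sites.

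**Figure D1:**
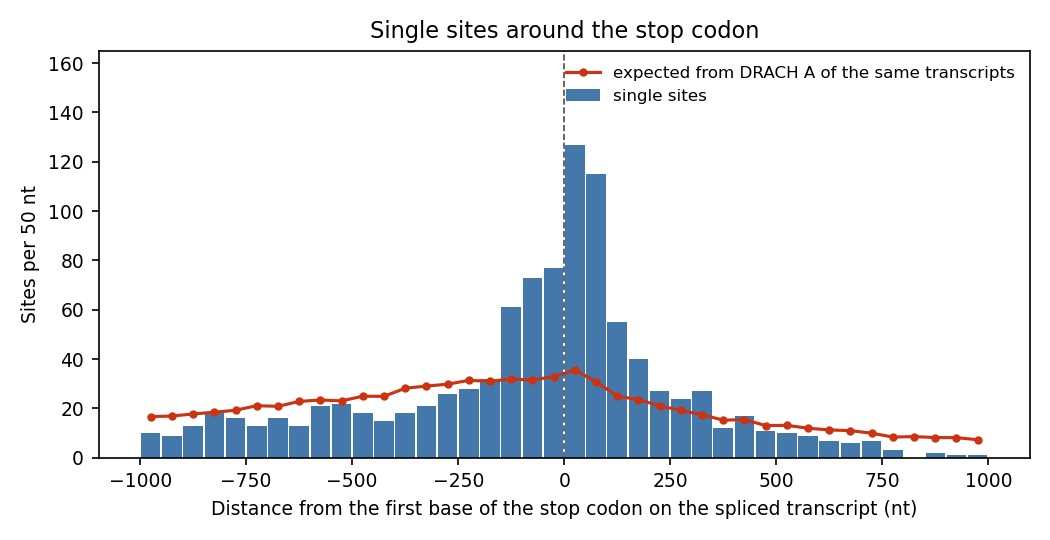
Number of single sites (bars) in bins of 50 nt by distance from the first base of the stop codon, negative before it, with the number expected if each gene's site were any DRACH A of its transcript (red points). The bars stand farthest above the red points in the first 2 bins after the start of the stop codon, with 127 and 115 sites.

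By region, 660 of the 1227 placed sites were in the CDS (53.8%, 51.0 to 56.6%), 521 in the 3′ UTR (42.5%, 39.7 to 45.2%) and 46 in the 5′ UTR (3.75%, 2.82 to 4.96%). DRACH A of the same transcripts were in the CDS in 56.2% and in the 3′ UTR in 37.9%, so the ratios were 0.956 and 1.12. The order of CDS and 3′ UTR turned when genes were chosen at a minimum score, with 48.1% and 50.9% at 0.7 and 27.7% and 72.3% at 0.9. The 3′ UTR sites were mostly close to the stop codon: 334 lay within 200 nt after it and 187 farther on. The sites closest to the stop codon overlapped it. In 29 genes the 5-base motif shared bases with the stop codon, and in 13 of them the listed A lay 2 nt before it, so that the last bases of the coding sequence and the T of the stop codon made the motif. In 3 genes the listed A was itself the last base of a TGA stop codon: Wbp4, a spliceosome-associated protein, with a score of 0.806, Pex5, the receptor that carries proteins into peroxisomes, with 0.660, and Btaf1, an ATPase that removes TATA-binding protein from DNA, with 0.589. The windows below show both arrangements, with the motif in capitals; Mad2l1 encodes a spindle checkpoint protein and scored 0.868, and Atp6v1e1 encodes a subunit of the proton pump of lysosomes and scored 0.845.
Mad2l1 (chr6:66539929-66539949, plus strand): cctgtcaaTGACTgacgagac
Atp6v1e1 (chr6:120795696-120795716, minus strand): aagtttctGGACTgagcttca
Wbp4 (chr14:79461912-79461932, minus strand): acgacgagTGACTgtgaagct
Pex5 (chr6:124397959-124397979, minus strand): tgccccagTGACAgtgggatg

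Of the DRACH sites with a stop codon in their transcript, 98 of 1144 (8.57%) were at the DRACH A nearest to the stop codon, against 2.52% if any DRACH A of the transcript were taken. The single site was thus close to the stop codon in many genes, but seldom at the closest motif on offer. Within the CDS, the A was at the second codon position in 292 of 608 DRACH sites (48.0%, against 49.0% of DRACH A in the same coding sequences), at the first in 164 (27.0% against 27.9%) and at the third in 152 (25% against 23.2%). The codon holding the A was most often GAC, for aspartate, with 240 sites, and ACT, for threonine, with 126. By the motif itself, a DRACH A at the second codon position can only be in GAC or AAC, and at the first only in ACT, ACA or ACC. Codon shares of DRACH A were not computed, so no preference for a codon is read from these counts.

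The share near the stop codon was lower in genes with 3 or more sites. For genes with 2 sites or more it was first computed in each gene and then averaged over genes. Genes with 2 sites had 45.7% of them within 200 nt of the stop codon, which differed from single sites by 1.64 percentage points (interval -2.29 to 5.58, so no difference was shown), while genes with 3 to 9 sites had 37.5% and genes with 10 or more 18.3%, lower by 29.0 points (25.8 to 32.2). DRACH A themselves were rarer there in genes with more sites, at 17.6%, 15.9% and 10.1% in order. The ratio of sites to DRACH A was 2.39 for single sites, 2.59 for 2 sites, 2.36 for 3 to 9 and 1.82 for 10 or more, values for which no interval was computed. With only the highest-scoring site of each gene counted, so that each gene gave 1 site, though in genes with more sites a site chosen by score, the shares were 47.8% for 2 sites, 40.4% for 3 to 9 and 19.9% for 10 or more. The reverse held far out in the 3′ UTR, more than 200 nt beyond the stop codon: 15.3% of single sites lay there against 29.4% of sites in genes with 10 or more, a difference of -14.2 points (-17.9 to -10.3). By length of the spliced transcript, in quartiles of genes with a site, the excess near the stop codon over genes with more sites was 0.339 points (-5.07 to 5.68) in the shortest quartile, 11.4 (5.37 to 17.5) and 5.12 (-1.05 to 11.6) in the middle quartiles and 10.9 (4.53 to 17.7) in the longest, so the first and the third of these intervals include no difference.

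**Figure D2:**
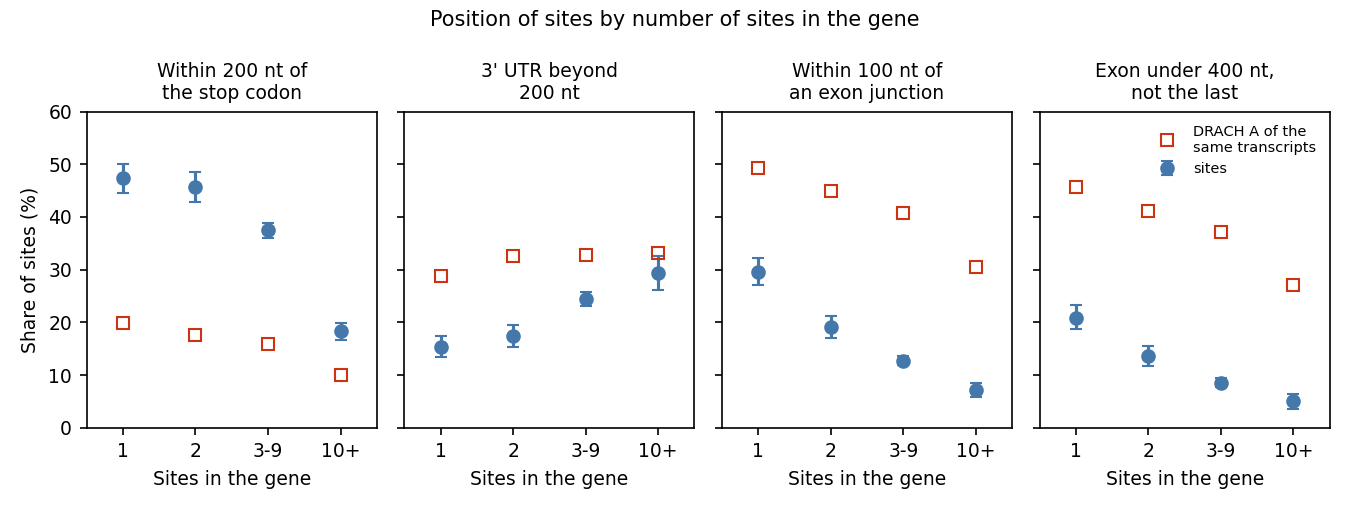
Share of sites in 4 kinds of position for genes with 1, 2, 3 to 9 and 10 or more sites (blue, with 95% intervals; genes weigh equally) and the share of DRACH A of the same transcripts (red squares). From 1 site to 10 or more, the share near the stop codon fell from 47.3 to 18.3% and the share near an exon junction from 29.6 to 7.19%.

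Single sites lay close to exon junctions more often than sites of other genes did. Of the 1227 placed sites, 363 were fewer than 100 nt from a junction (29.6%, 27.1 to 32.2%; 16.4% with genes chosen at a minimum score of 0.7 and 6.69% at 0.9), against 19.1% in genes with 2 sites, 12.8% with 3 to 9 and 7.19% with 10 or more. The difference from genes with 10 or more sites was 22.4 points (19.6 to 25.3). All groups were below their own DRACH A, which were there in 49.3% for single-site genes and 30.4% for genes with 10 or more sites, and the ratio of sites to DRACH A was 0.60 for single sites, 0.425, 0.314 and 0.236 for the others in order. The difference from all genes with more sites was present in each length quartile, from 22.2 points (17.2 to 27.3) in the shortest to 8.46 (3.65 to 14.2) in the longest. Among sites scoring at least 0.7, 17.8% of single sites were near a junction and the difference was 7.81 points (4.94 to 11), and among those below 43.0% were and the difference was 24.9 (20.7 to 29.1).

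Exon length differed as well. Exons under 400 nt other than the last one held 256 single sites, 20.9% (18.7 to 23.2%), against 13.7% of sites in genes with 2 sites, 8.59% with 3 to 9 and 5.03% with 10 or more. DRACH A were there in 45.6% for single-site genes and 27.1% for genes with 10 or more sites, which gave ratios of 0.458 and 0.186. Exons of at least 400 nt other than the last held 157, or 12.8%, against 32.1% in genes with 10 or more sites. Relative to DRACH A, which were there in 6.47% for single-site genes and 20.7% for genes with 10 or more sites, the ratios were 1.98 for single sites, 2.06 for genes with 2 sites, 1.89 for 3 to 9 and 1.55 for 10 or more. Of the 413 members with a site outside the last exon, 38.0% were in such long exons, while 19.1% of DRACH A outside the last exon of the same transcripts were. The median exon of these 413 sites was 279 nt long (237 to 337), and the median distance to the nearest junction was 91 nt.

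Some internal coding exons held high-scoring single sites. Elf4, an ETS transcription factor, scored 0.971 in exon 8 of 9, an exon of 378 nt, 77 nt from the start of that exon. Pan2, the catalytic subunit of a poly(A)-shortening complex, scored 0.959 in exon 2 of 26, which has 399 nt. Vps28, a subunit of the ESCRT-I complex that sorts membrane proteins, scored 0.940 in exon 5 of 10, an exon of 90 nt with the site 18 nt from its end. The exon of Vps28 was thus far shorter than those of the other two.

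The last exon held 814 placed sites, 66.3% (63.6 to 68.9%), against 47.9% of DRACH A in the same transcripts. Genes with 2 sites had 69.5% there, with 3 to 9 sites 71.6% and with 10 or more 62.9%. The comparison varied with length: in the shortest quartile 65.2% of single sites and 81.6% of sites in genes with more sites were in the last exon, a difference of -16.4 points (-21.5 to -11.5), while in the 3 longer quartiles the intervals of the difference included none. The direction turned with the score: among sites scoring at least 0.7 single sites were in the last exon more often (79.6% against 74.9%, a difference of 4.69 points, 1.16 to 7.90), and among those below less often (51.3% against 63.2%, -11.9 points, -16.3 to -7.56). The highest-scoring sites of genes with more sites were there in 74.7%. Only 10 members had a transcript of 1 exon. In the 804 other last exons, the median site was 213 nt from the exon's start (202 to 230), and 143 sites (17.8%) were within 100 nt of the last junction, against 13.3% of DRACH A in the same exons. Single sites were also in the longest exon of their transcript in 838 genes (68.3%), against 49.0% of DRACH A.

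Single-site genes had shorter transcripts than genes with more sites, but not fewer motifs for their length. The median spliced transcript had 2627 nt (2515 to 2694), against 3016 nt for genes with 2 sites, 3224 nt for 3 to 9 and 4773 nt for 10 or more. The median 3′ UTR rose from 794 to 1639 nt, the median CDS from 1248 to 2317.5 nt and the median last exon from 1048 to 2240 nt between genes with 1 site and with 10 or more. The number of exons was close, at a median of 9 and 10. DRACH A per 1000 nt had medians between 19.9 and 20.1 in the 4 groups, so a single-site transcript still held a median of 52 DRACH A, from 6 to 580. GC content rose from a median of 50.3% in single-site genes to 53.6% in genes with 10 or more sites.

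Among genes of the shortest quartile 38.5% (35.8 to 41.3%) had a single site, and this fell to 25.9%, 21.8% and 19.0% (16.9 to 21.3%) in the longer ones. The ends of the range show how loose this relation was. The shortest member was Rps21, a protein of the small ribosomal subunit, with 394 nt, 7 DRACH A and a score of 0.668 at the end of its first exon. The longest was Dst, a giant cytoskeletal linker, with 23201 nt and 580 DRACH A, of which 1 in exon 47 of 103 was listed, with a score of 0.822. Vps13c, a lipid transport protein, had 253 DRACH A in 11527 nt and 1 site with a score of 0.740.

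**Figure D3:**
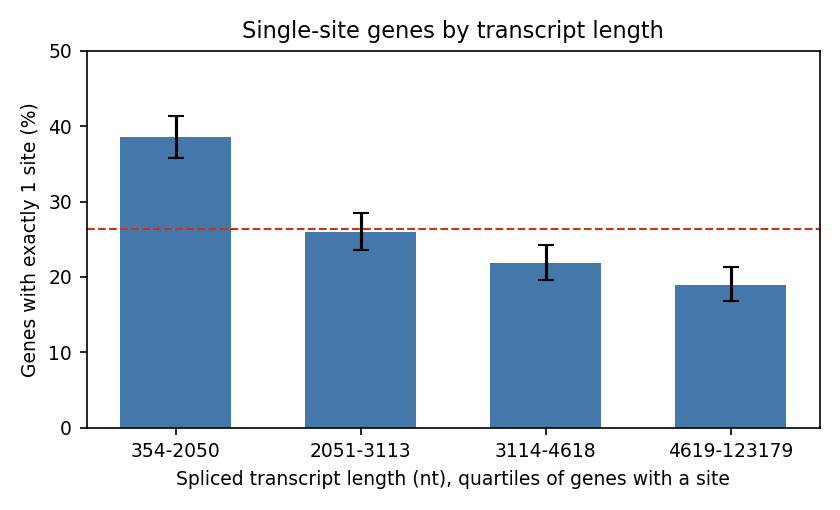
Percent of genes with a site that had exactly 1, in quartiles of spliced transcript length (bars with 95% Wilson intervals). The share fell from 38.5% in the shortest to 19.0% in the longest quartile, around the 26.3% of all genes with a site (red line).

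The motif of single sites was mostly DRACH, at 1187 of 1275 sites (93.1%, 91.6 to 94.4%), and this was close to genes with 2 sites (93.3%), 3 to 9 (91.8%) and 10 or more (91.6%), with every interval of the difference including none. GGACT led with 354 sites, or 27.8% (25.4 to 30.3%), followed by AGACT with 186, GAACT with 154, GGACA with 144 and TGACT with 81. Of the placed sites 27.9% were at GGACT, against 5.73% of DRACH A in the same transcripts as a mean over genes, a ratio of 4.86. TGACC, at 5.70% of all DRACH A in these transcripts, had 2 sites. In genes with more sites, 18.8% of sites were at GGACT. Averaged over genes, the share was 23.5% with 2 sites, 19.1% with 3 to 9 and 16.9% with 10 or more, lower than in single-site genes by 4.34 (1.22 to 7.57), 8.79 (6.22 to 11.5) and 11 points (8.23 to 13.9).

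The difference in GGACT from all genes with more sites was 11 points (7.26 to 15.0) among sites scoring at least 0.7 and 6.52 (3.49 to 9.96) among those below, and it lay between 5.37 and 11.9 points in the length quartiles, with every interval above 0. Among 3′ UTR sites it was 9.66 points (5.72 to 13.9), and among CDS sites 4.88 points (1.54 to 8.49). A comparison that used only the highest-scoring site of each gene showed no such lead. The highest-scoring site was at GGACT in 30.1% (28.6 to 31.6%) of genes with more sites, against 27.9% of placed single sites, a difference of -2.21 points (-5.09 to 0.764). The median score of GGACT sites was 0.790 in single-site genes and between 0.793 and 0.811 in the other groups, and the part of choosing by score in this comparison was not tested. In single-site genes whose site was at DRACH and whose transcript held a GGACT, 342 of 1034 (33.1%, 30.3 to 36.0%) had the site at a GGACT, against 6.36% if any DRACH A were taken.

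Bases outside the motif differed too between the 1142 single DRACH sites with a full window and 71715 unlisted DRACH A of the same transcripts. The base after the motif was G in 41.4% of sites and 25.2% of unlisted DRACH A, and A in 10.2% and 25%. The next base was T in 39.3% and 26.0%. At the fourth base before the listed A stood another A in 39.3% and 28.1%. In genes with more sites these shares were 39.6% for G, 11.3% for A, 35.8% for T and 39.1% for the A upstream. Such flanks can be read in the windows of Fcna and Vps28, where the motif is followed by gtg. All of these bases are within the stretch that m6Aboost reads, and the part of the model in these shares was not tested.

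Outside DRACH there were 88 single sites, led by GGACG with 16, GTACT with 14 and GGATT with 10. Their median score was 0.583 (0.555 to 0.610), against 0.730 (0.718 to 0.746) at DRACH. Cdkn2d, an inhibitor of cyclin-dependent kinases, scored 0.912 at GGACG, 92 nt before its stop codon in the last exon. Dctn4, a subunit of the dynein partner dynactin, scored 0.902, also at GGACG, 307 nt after the start of its stop codon.

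Scores of single sites ranged from 0.50 to 1, with a median of 0.718 (0.702 to 0.730), against 0.722 for all sites of genes with 2 sites, 0.741 with 3 to 9 and 0.730 with 10 or more. The highest score of a gene is a larger value by construction where there are more sites, and its median was 0.812, 0.875 and 0.917 in these groups. Region divided the scores of single sites more than the number of sites did. The median was 0.794 (0.782 to 0.809) in the 3′ UTR, 0.712 (0.684 to 0.736) in the CDS of the last exon, 0.632 (0.619 to 0.646) in the CDS outside it and 0.596 (0.555 to 0.619) in the 5′ UTR. Within the 3′ UTR the medians near the stop codon and farther on, 0.792 and 0.805, had overlapping intervals. The CDS medians rose with the number of sites in the gene, from 0.661 for single sites to 0.686, 0.699 and 0.713, while the 3′ UTR medians of the 4 groups lay between 0.776 and 0.794. The transcript region is also an input of m6Aboost, and so is the signal of a peak relative to the mean of all peaks in the same gene. The part of these inputs in the scores was not tested.

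**Figure D4:**
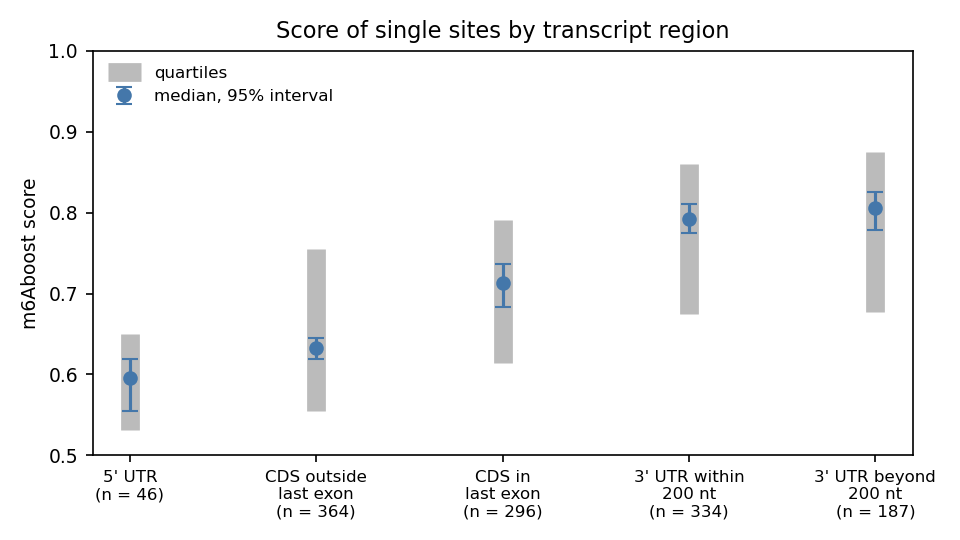
m6Aboost score of single sites by transcript region; points are medians with 95% intervals, grey bars run from the first to the last quartile, and the axis starts at the lowest score listed. The median rose from 0.596 in the 5′ UTR to 0.805 in the 3′ UTR beyond 200 nt.

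The 10 highest scores ran from 1 to 0.974 and included those of Tmem209, Id1, Syncrip, Azi2, Fcna, Rab5if and Paqr4. Of the 10, 7 were at GGACT and 8 were placed in the 3′ UTR of the last exon. Tmem209, a membrane protein, had its site 29 nt after the first base of the stop codon, in a last exon of 1758 nt. Id1, which keeps helix-loop-helix transcription factors from binding DNA, scored 0.991 in a transcript of 1 exon, 279 nt past that base. Azi2, an adaptor of the kinase TBK1 in interferon signalling, scored 0.986 at 34 nt past it. Fcna, the pattern-recognition lectin ficolin A, was the CDS site with the highest score, 0.983, 173 nt before the stop codon. The site of Syncrip, an RNA-binding protein, scored 0.991 but was not in the transcript with the longest CDS and has no distance. Such unplaced sites numbered 48, with a median score of 0.734 (0.687 to 0.809).

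Sites in the 5′ UTR were few and low in score. Gpr137 led them with 0.796, followed by Chkb, a choline kinase, with 0.777, both in first exons. At the lower end, 35 single sites scored under 0.51 and 160 under 0.55. The lowest were Smim10l1, Vps13b and Elac1, with 0.50, 0.50 and 0.501, so these genes would have no site under a slightly higher threshold.

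The border between 1 and 2 sites also moved with the score. In genes with 2 sites the lower score had a median of 0.639 and the higher one 0.812, and in 361 of the 956 genes (37.8%) the lower score was under 0.6. Both sites were on the same transcript in 922 genes, with a median of 103.5 nt (91 to 124) between them, and 454 pairs (49.2%) were within 100 nt. Asking for a score of at least 0.7 left 680 of the 1275 single-site genes with their site and turned 773 genes with more sites into single-site genes. At a minimum of 0.9 these numbers were 96 and 897.

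The gene lists below were read against the 26.3% of all genes with a site that had exactly 1, with no test, since the lists were chosen with results of these data known. Positions of sites in the lists are given as counts only. The share of DRACH A at the same positions was not computed for the lists, so the part of exon structure in these counts was not tested. Genes of the cytosolic ribosome stood highest: 19 of the 24 ribosomal protein genes with a site had exactly 1, or 79.2% (59.5 to 90.8%), 3 had 2 sites and 2 had more, while 83 such genes are annotated. The median transcript of the 24 had 856.5 nt, and in the shortest length quartile of all genes with a site 38.5% had a single one. Of the 19 single sites of the ribosomal proteins, 15 were in the CDS, 3 in the 5′ UTR and 1 in the 3′ UTR. The last exon held 2 of the 19, and 3 were within 200 nt of the stop codon. Fewer than 100 nt from a junction were 17, in exons with a median length of 136 nt, from 34 to 444. Any base of an internal exon of 136 nt is that close to a junction, so the count of 17 is not read as a preference. Rpl39 had the highest score, 0.832, at AGACT in its last exon, 90 nt after the start of the stop codon. Rps9 scored 0.789 at GGACT, 10 nt from the start of an exon of 123 nt, and Rpl4 scored 0.740 in its last exon. Rps18, Rpl6 and Rps28, with 0.692, 0.694 and 0.663, were in exons of 189, 144 and 59 nt. The median of the 19 scores was 0.658 and the lowest 0.503, at Rpsa. Ribosomal protein genes have near-identical processed copies elsewhere in the genome, and the authors kept only reads that mapped uniquely, so reads fitting several copies were dropped. The part of this in the site counts of these genes was not tested.

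Mitochondrial ribosomal protein genes had 18 of 48 at 1 site (37.5%, 25.2 to 51.6%). The median transcript of the 48 had 1461 nt, which is in the shortest length quartile of genes with a site, of which 38.5% had a single one. Of the 17 placed sites, 15 were in the last exon, 16 within 200 nt of the stop codon and 2 near a junction, and the median score was 0.808. Mrpl40 scored 0.944, 6 nt past the first base of the stop codon, Mrpl11 0.914 at 78 nt and Mrpl34 0.896 at 27 nt. In the last exon were thus 2 of 19 single sites of the cytosolic and 15 of 17 of the mitochondrial ribosomal proteins. The exons that held the sites had medians of 136 and 645 nt. The share of DRACH A in the last exons was computed for neither list, so the part of exon structure in this contrast was not tested.

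Genes for the respiratory chain and ATP synthase had 14 of 26 at 1 site (53.8%, 35.5 to 71.2%), with 5 of 13 placed sites in the last exon and a median score of 0.580. Atp5o, a stalk subunit of ATP synthase, scored 0.919, 6 nt past the first base of the stop codon, and Cox7a2l, an assembly factor of respiratory supercomplexes, scored 0.886. For the V-ATPase, the proton pump of lysosomes, the count was 5 of 8, all in the last exon and scoring from 0.807 to 0.898, and it included Atp6v0d1 with 0.898 and Atp6v1f with 0.889. For the proteasome it was 10 of 23, led by Psmd4, its ubiquitin receptor, with 0.839. Transcripts of these lists were short, with medians of 1470.5 nt for the V-ATPase, 1042 nt for the respiratory chain and 1628 nt for the proteasome, all in the shortest length quartile of genes with a site, of which 38.5% had a single one.

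Genes named Vps, mostly of vesicle sorting, had 9 of 21 at 1 site, among them Vps72, a chromatin remodelling subunit. Genes named Usp, mostly ubiquitin-specific proteases, had 10 of 25, among them Usp6nl, which acts on Rab GTPases. The SR and hnRNP splicing factors had 8 of 23, and 6 of these 8 sites were near a junction, where the exons of the 8 had a median of only 159.5 nt. Genes named Tmem had 18 of 54, with 9 sites at GGACT, and mRNA decay genes 14 of 42. C2H2 zinc finger genes named Zfp had 25 of 81, with 20 sites in the CDS and 19 in the last exon, and the 24 placed sites were in exons with a median of 2231 nt; Zfp281 led with 0.882. Genes named Rab had 7 of 22, led by Rab5if, which is no GTPase, and by Rab10 with 0.913. The MAP kinase cascade had 7 of 23, with Map2k1 at 0.877; the count includes Mapkap1, a subunit of mTORC2 matched by its symbol, at 0.928. Genes named Slc, mostly solute carriers, had 21 of 103, of which Slc4a1ap and Slc7a6os are not carriers. They were led by the mitochondrial phosphate carrier Slc25a3 with 0.956, 22 nt past the first base of the stop codon. Kinesins had 3 of 11, protein phosphatase 1 and 2A subunits 4 of 22, TRIM ligases 2 of 16 and aminoacyl-tRNA synthetases 2 of 20.

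Translation initiation factors had 8 of 35 at 1 site, among them Eif1b with 0.957. Eif4a3, the helicase at the core of the exon junction complex, scored 0.927, 69 nt past the first base of its stop codon in a last exon of 197 nt. It was 1 of 2 such genes among 5 of that complex with a site, beside Upf3b with 0.526. Cell cycle genes had 14 of 49, with Ccnk at 0.964 and Top2a, a topoisomerase, at 0.961, and 10 of these sites were within 200 nt of the stop codon. Apoptosis genes had 3 of 14, Bad among them with 0.846. Iron and oxidative stress genes had 8 of 23, including the peroxidase Prdx1 with 0.949 and the transferrin receptor Tfrc with 0.870. Genes of cholesterol handling had 7 of 27, with the exporter Abcg1 at 0.848.

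Among genes of macrophage function the single-site share ran from 11.5% for transcription factors to 35.3% for markers and receptors. Toll-like receptor and NF-kB genes had 9 of 36 at 1 site (25%), including Tnip2 with 0.864, Nfkbie with 0.820, Nfkbib with 0.795 and Ikbkg with 0.695, regulators of NF-kB. Interferon and antiviral genes had 6 of 27, led by the kinase Jak1 with 0.927 and by Ddx58, the RNA sensor RIG-I, with 0.897. Cytokine and chemokine genes had 4 of 24 (Ccl9, Csf2ra, Il1rn and Mif), and 1 of those 4 sites was at DRACH. Macrophage transcription factors had 3 of 26 (11.5%, 4.0 to 29.0%), among them Fli1 with 0.848 and Stat3 with 0.528. Macrophage markers and receptors had 6 of 17 (35.3%, 17.3 to 58.7%), with Ptprc at 0.818 and the scavenger receptor Cd36 at 0.604. Lysosomal genes had 9 of 42, all 9 in the last exon, among them Ctsl with 0.818, Scarb2 with 0.797 and Lamp1 with 0.776.

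Of the genes that write, erase and read m6A, 2 of the 15 with a site had a single one (13.3%, 3.74 to 37.9%). The 2 were Hnrnpa2b1, an RNA-binding protein described as a reader, with 0.778 in exon 3, 7 nt from the end of that exon, and Ythdc1, the nuclear reader, with 0.609 in its last exon, 35 nt before the stop codon. The lists overlap each other, and Hnrnpa2b1 is counted among the splicing factors as well.

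**Figure D5:**
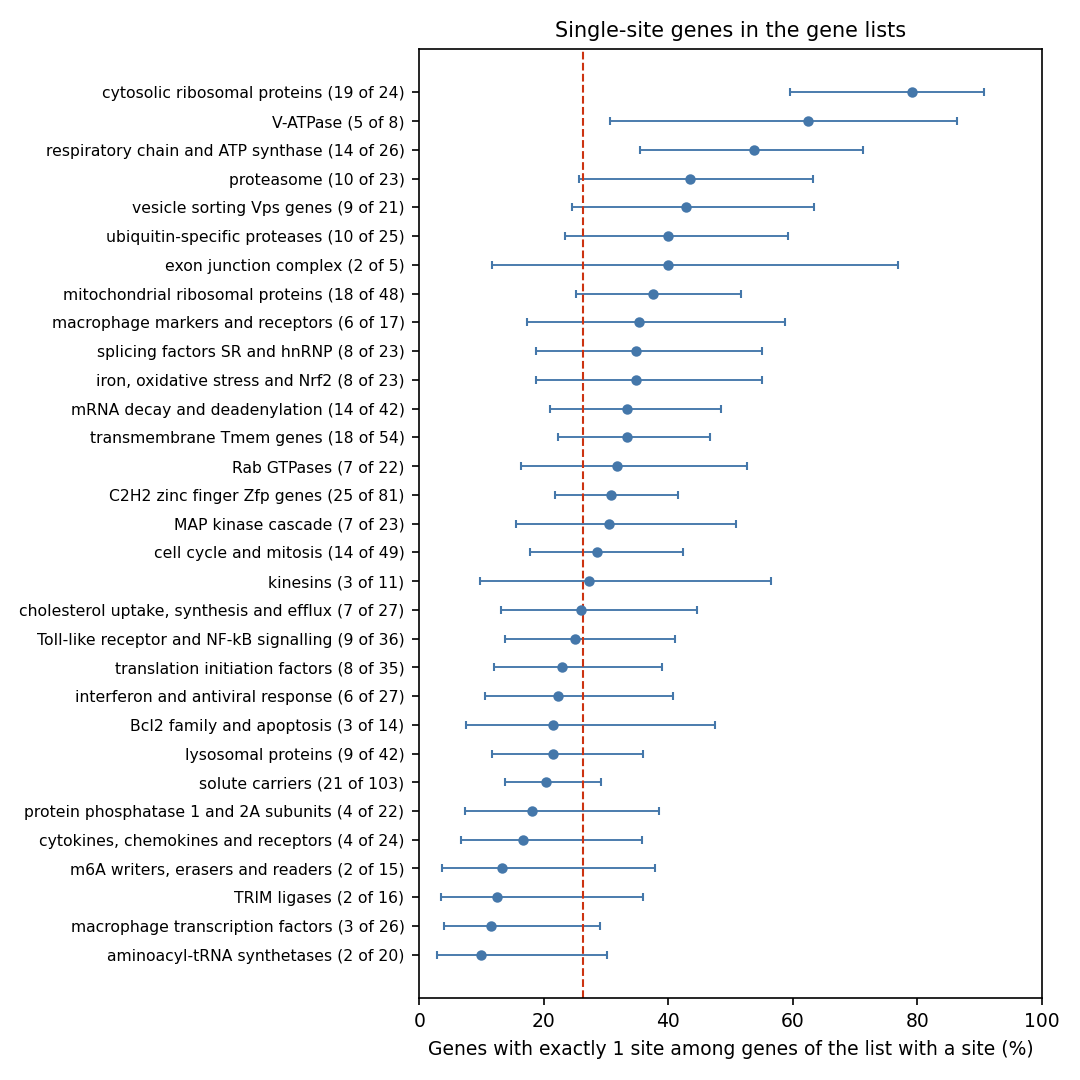
Percent of genes with exactly 1 site among the genes of each list with a site, with 95% Wilson intervals and the counts in parentheses; the red line is the 26.3% of all genes with a site. Cytosolic ribosomal proteins (79.2%) are at the top and aminoacyl-tRNA synthetases (2 of 20) at the bottom.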

How the data were processed

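The authors mapped miCLIP2 reads of 3 replicates to GRCm38 (per the labels with STAR 2.7.3a, SAMtools 1.9, UMI-tools 1.0.0 and bedtools 2.27.1), called peaks with PureCLIP, kept those in at least 2 replicates and scored those at A. The deposited values are m6Aboost scores, 1 per site, above 0.5 and pooled over replicates. Counts, depth and precision per site are not in the list used here.

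Sites were read as 1-based positions, checked against GRCm38 and joined to exons of GENCODE M21 (the authors used a later release). Sites in exons of several genes (350) or of none (48) were left out. Of the members, 20 had a further site within the gene span that the rule did not count. Shares of single sites have 95% Wilson intervals, shares of other genes are means over genes with normal intervals, differences combine these limits by Newcombe's method, and medians use order statistics. These intervals cover counting error over genes only. DRACH shares are means over genes of all DRACH A on the same spliced transcript. No p-value was computed. Placement and intervals were tested on simulated data. Python 3.11.15, NumPy 2.4.6, SciPy 1.17.1, pandas 2.3.3, pysam 0.24.0 and matplotlib 3.10.9 were used.

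The members, the 31 gene lists and the rules were chosen with earlier results of these data known. Genes were named by rule: the 10 highest scores, the 2 highest of each position class and of non-DRACH sites, up to 6 of each list by score, members that the paper names, the 3 lowest scores, and the longest and shortest transcripts. Btaf1, Rps28, Rpsa and pairs chosen for contrast were picked after their values were seen. Slc4a1ap and Slc7a6os were named outside these rules, as members of their list that are not carriers. Alternatives were minimum scores, collapsed neighbours, a transcript support filter, exons of protein-coding genes only, a clean gene span, another transcript, other windows and RRACH. Length and score strata, the highest-scoring site per gene, and the alternatives for exon junctions and GGACT were added after seeing the data. Some genes that the rule names are not reported here.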

Additional observations from a re-analysis of the deposited data

How the results depend on the processing

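Collapsing sites within 5 nt, the transcript support filter, judging sharing only on protein-coding exons and asking for no further site in the gene span left all 11 results computed under each of them within the interval of the reported value, or, for the number of genes, within 1.5 times of it. Under minimum scores of 0.7 and 0.9 the number of single-site genes was 1453 and 993, and the share near the stop codon 49.6 and 44.6%. The other 9 results moved: the share of genes with a site that had 1 was 36.6 and 77.8%, the 3′ UTR share 50.9 and 72.3%, the CDS share 48.1 and 27.7%, the last exon share 73.8 and 85.3%, DRACH 97.5 and 98.9%, GGACT 32.1 and 38.9%, the share within 100 nt of a junction 16.4 and 6.69%, the median score 0.814 and 0.925, and the median spliced length 2916 and 3247 nt. These settings choose mostly other genes. On the longest spliced coding transcript the 3′ UTR share was 46.3%, the CDS share 49.9% and the median spliced length 2811 nt, and the shares near the stop codon, in the last exon and near junctions stayed within their intervals. The share around the stop codon was 32.1% within 100 nt and 62.3% within 400 nt, the share near a junction 14.5% within 50 nt and 55.3% within 200 nt, and RRACH held 84.2% of the sites.

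No paired analysis was possible because all 3 replicates are pooled into 1 list, which also left no replicate to leave out. Depth per site is unknown without counts, and no precision can be given for a single site.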
